A study of Mus musculus with 5 samples.

Results

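Interferon response genes are the genes that cells switch on after an interferon binds its receptor, together with the receptors and transcription factors that carry the signal. A list of 45 such genes was examined in CD4+ T cells from the colon of mice with colitis and in naive CD4+ T cells. The genes were chosen by name from known interferon biology, with earlier results of these arrays known, and no measured value entered the rule. Of the 45 genes, 44 were measured by a probe set that carries 1 gene symbol, among 18193 genes measured in all. Isg15, a ubiquitin-like modifier, was left out because its probe set also carries the symbol of another gene.

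RNA was hybridized to Affymetrix Mouse Genome 430 2.0 arrays. CXCR6 Hi cells (n = 2 arrays) and CXCR6 Lo cells (n = 2 arrays) were CD3+ CD4+ T cells sorted from the colonic lamina propria (LP) of mice in the CD45Rb Hi transfer model. In this model CD4+ CD45RBhigh T cells from the spleen of BALB/c mice are injected into Rag1-/- recipients, which have no T or B cells of their own but keep their myeloid, epithelial and stromal cells. A footnote to the study's data on these cells gives 6 weeks between transfer and sorting, whereas the methods give 8 weeks for the transfer model. Mice entered experiments at an age of 8 to 12 weeks, by the methods. The fifth array held CD45Rb Hi naive cells of BALB/c mice (n = 1 array), described as coming from healthy mice. Its labels name both spleen and LP as the tissue, and the methods name the spleen. All donors were BALB/c and no further allele or agent is named. The LP arrays are labelled biological replicates, and how many mice gave each sample is not stated, so every p-value here rests on array-to-array spread, which may be partly technical.

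Interferons act through 2 receptors. Type I interferons, made by many cell types during viral infection, bind IFNAR1 and IFNAR2. The signal joins STAT2 and IRF9 to another STAT protein in the complex ISGF3, which binds the interferon-stimulated response element (ISRE) in promoters of antiviral genes. Type II interferon, IFN-γ, is made mainly by activated T cells and NK cells, binds IFNGR1 and IFNGR2, and acts through STAT dimers at gamma-activated sites (GAS). It is known for inducing GTPases of the GBP and IRG families and the machinery that loads peptides onto MHC class I. IFN-γ is a main product of the T cells that drive transfer colitis.

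Signals are given as deposited, on a linear scale on which the median probe set of each array is 1. Differences are on the log2 scale, from a linear model over the 3 groups in limma. "LP" stands for the mean of the CXCR6 Hi and CXCR6 Lo groups. A gene passed when its p-value, adjusted over all 18193 genes by the Benjamini-Hochberg method, was under 0.05. "Rose" and "fell" are used only for genes that passed. The naive array has no replicate and was assumed to vary as the LP arrays do. Signals of different genes are not compared with each other.

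The naive array stood apart from the others across all genes, with Spearman correlations to LP arrays of 0.821 to 0.826, while LP arrays correlated with each other at 0.951 to 0.957. T cell markers (7 of 8 measured) were present in all groups, with summed signals of 447 to 705 in LP and 563 in naive cells. The sums hide markers that ran both ways, 4 with a positive and 3 with a negative log2 difference. Tested as described above, Cd3d and Cd3e fell and 0 of the 7 rose, beside 18.8% and 15.1% of all genes. B cell markers (9 of 10 measured) summed to 5.58 to 6.50 in LP and 65.3 in naive cells. Handling and stress genes, all 10 measured, summed to 910 to 1311 in LP and 403 in naive cells, and fibroblast and smooth muscle genes, all 11 measured, to 103 to 165 and 11.48. The added control RNA Dap read 95.5 to 139 in LP and 0.191 in naive cells, and the female-specific transcript Xist 181 to 215 and 0.864. The ratio of Gapdh signal at the 3' end to that at the 5' end, a measure of RNA integrity, was 2.81 to 6.96 in LP and 1.51 in naive cells. With 1 naive array, its tissue preparation, spike-in, RNA quality, sex and cell group cannot be told apart.

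The motifs of both pathways were searched in the promoters. RefSeq promoter windows (GRCm38.p6, 250 bases before to 50 after a transcript start) were available for 36 of the 45 genes, and the other 9 (Dhx58, Mx1, Mx2, Oas2, Usp18, Rtp4, Parp14, Parp9 and Zbp1) were not searched. The core of an ISRE, read as GAAA, any 2 bases and GAAA again, was searched on both strands and found in 19 of the 36 genes (52.8%), compared with 1079 of all 27025 genes with a window (3.99%). The letters TTCNNNGAA, the core of a GAS, were found in 12 of the 36 (33.3%) and in 2582 of all genes (9.55%). A GAS match and an ISRE match can share bases. The stretches below show the ISRE letters of antiviral genes on either side of the comparison described next, then of the GTPases, and last the GAS letters of Irf1, with the matched letters in capitals and each stretch read on the strand of its gene.
Ifit1, chr19:34640760-34640838, plus strand: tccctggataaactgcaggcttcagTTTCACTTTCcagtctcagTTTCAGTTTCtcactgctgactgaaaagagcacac
Bst2, chr8:71537562-71537627, minus strand: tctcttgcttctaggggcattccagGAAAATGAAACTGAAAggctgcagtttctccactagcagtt
Oas3, chr5:120777700-120777759, minus strand: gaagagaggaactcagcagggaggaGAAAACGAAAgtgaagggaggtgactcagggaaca
Oas1a, chr5:120907526-120907570, minus strand: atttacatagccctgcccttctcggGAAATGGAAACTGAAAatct
Gbp2, chr3:142620579-142620638, plus strand: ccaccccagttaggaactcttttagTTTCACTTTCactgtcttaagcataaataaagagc
Igtp, chr11:58199497-58199555, plus strand: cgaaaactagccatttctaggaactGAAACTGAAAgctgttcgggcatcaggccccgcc
Irgm2, chr11:58214888-58214947, plus strand: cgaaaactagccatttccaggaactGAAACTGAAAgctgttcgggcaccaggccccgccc
Irgm1, chr11:48871421-48871475, minus strand: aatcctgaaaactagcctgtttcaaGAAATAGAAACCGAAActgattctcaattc
Irf1, chr11:53769899-53769957, plus strand: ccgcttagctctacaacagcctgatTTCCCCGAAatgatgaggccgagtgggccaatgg

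The search reached only 250 bases before and 50 after a start, so every match lies near one. Ifit1 holds 2 ISRE matches, between 104 and 76 bases before the start, and Bst2 holds 2 that overlap, between 130 and 115 bases before it. All 5 GTPase genes hold an ISRE match and 2 of them, Igtp and Irgm2, also hold a GAS match. Igtp (chr11:58199556-58207592) and Irgm2 (chr11:58214977-58222783) are neighbours, and over 59 bases around the match their promoters are identical at 57 positions (96.6%). Among the 28 measured antiviral and RNA sensor genes, 12 of 19 with a window hold the ISRE letters (63.2%). Neither chain of the IFN-γ receptor and neither antigen presentation gene holds either set of letters in its window.

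**Figure D1:**
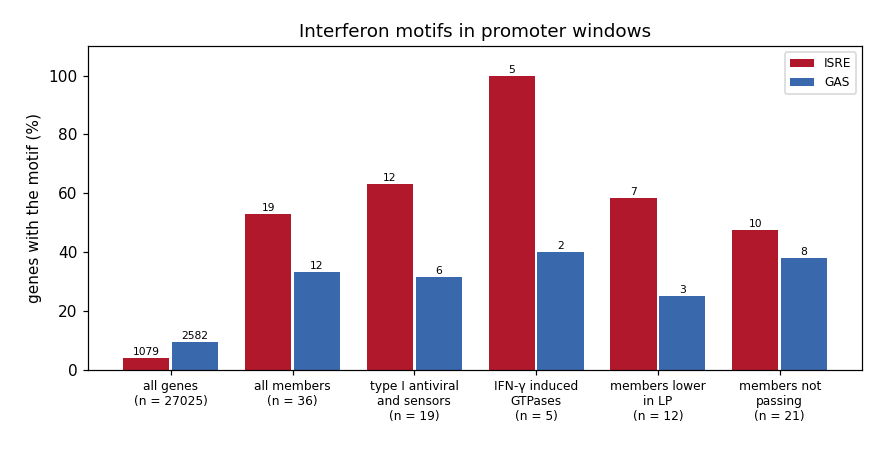
Share of genes (%) whose RefSeq promoter window holds the ISRE or the GAS letters, for all genes, all listed genes and groups of them, with the number of genes above each bar and the number with a window (n) under each pair. The ISRE letters are in 52.8% of the listed genes and 3.99% of all genes.

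In LP CD4+ T cells from colitis, 17 of the 44 interferon response genes fell against naive T cells, 2 rose and 25 did not pass the test. Those that fell were mostly effectors of the type I antiviral response, among them Usp18, Zbp1 and Trim21, with signals 5.36- to 15.1-fold lower in the LP. The 2 that rose were Ifngr1, the ligand-binding chain of the IFN-γ receptor, 8.60-fold higher, and Oas1a, an oligoadenylate synthetase, which was dim and did not pass when signals were floored at 1 (adjusted p = 0.0720). Of the 5 GTPases induced by IFN-γ, 1 fell and 4 did not pass. Of all 18193 genes, 18.8% fell and 15.1% rose in this comparison, against 38.6% and 4.55% of the 44. The median log2 difference was -0.76 over the 44 genes and -0.14 over all genes. In bulk RNA, fewer cells of a type and less RNA per cell cannot be told apart.

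**Figure D2:**
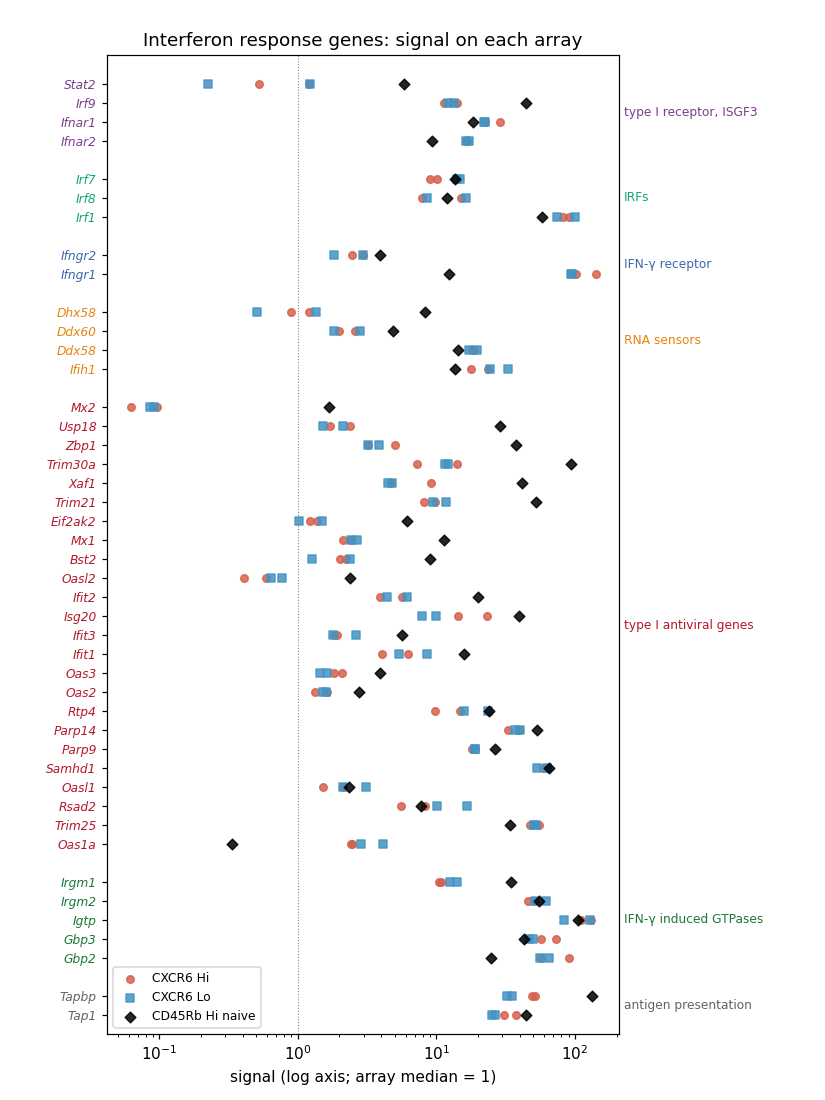
Signal of each of the 44 genes on each array (log axis, array median set to 1), grouped by role. Most antiviral genes have all 4 LP arrays to the left of the naive array, as 28 of the 44 genes do (63.6%, against 40.9% of all genes). All 4 lie to the right in 10 of the 44 (22.7%, against 35% of all genes), Ifngr1 and Oas1a among them.

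The receptors for type I interferon were measured in every group. Ifnar1 had signals of 22.3 and 28.6 on the CXCR6 Hi arrays, 22.6 and 22.0 on the CXCR6 Lo arrays and 18.3 on the naive array, and its log2 difference of 0.37 did not pass (adjusted p = 0.356). Another Ifnar1 probe set read 17.5 to 25.2 in the LP and 2.69 in naive cells, and with probe sets averaged Ifnar1 passed as higher (1.70, adjusted p = 0.0267). Ifnar2, the chain needed for ligand binding with Ifnar1, had 16.4 to 17.1 in LP and 9.25 in naive cells (log2 difference 0.85, SE 0.24, adjusted p = 0.0666). Its dimmer probe sets ran the other way, with 2.60 to 4.197 against 7.30 and 1.25 to 2.70 against 6.35, so that the direction of Ifnar2 depends on the probe set. Irf9, the DNA-binding part of ISGF3, had signals of 11.4 and 14.2 in CXCR6 Hi, 13.4 and 12.2 in CXCR6 Lo and 44.0 in naive cells. All 4 LP arrays were below the naive array and close to each other, and Irf9 fell by 1.79 (SE 0.27, adjusted p = 0.0223). Stat2, the transactivating partner of Irf9, had 1.21 and 0.522, then 1.22 and 0.226, against 5.80 on the naive array. Replicate arrays of Stat2 differed by more than those of Irf9, and its log2 difference of -3.17 (SE 1.14) did not pass (adjusted p = 0.111). Stat2 passed as lower with a 40th percentile filter, signal plus 1, a floor at 1 and a variance trend (adjusted p = 0.0076 to 0.0262).

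The chains of the IFN-γ receptor differed from each other. Ifngr1 had signals of 102 and 141 on the CXCR6 Hi arrays, 95.7 and 93.6 on the CXCR6 Lo arrays and 12.4 on the naive array. It rose by 3.10 (SE 0.30, adjusted p = 0.0136), an 8.60-fold higher signal. Ifngr2, the signalling chain, was dim, with 1.83 to 2.97 in the LP and 3.91 in naive cells (log2 difference -0.65, adjusted p = 0.264). Its other probe set read 0.10 to 0.457 against 3.85, and with probe sets averaged Ifngr2 passed as lower (-2.25, adjusted p = 0.0466). Every LP array was above the naive array for Ifngr1 and below it for Ifngr2.

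No interferon regulatory factor among the 44 passed apart from Irf9. Irf1, a factor that IFN-γ induces and whose promoter holds the GAS letters printed above, had 82.4 and 91.0 in CXCR6 Hi, 99.965 and 74.4 in CXCR6 Lo and 58.0 in naive cells (log2 difference 0.58, adjusted p = 0.214). Irf7, which amplifies type I interferon responses, had 8.95 and 10.03 in CXCR6 Hi, 14.9 and 14.0 in CXCR6 Lo and 13.5 in naive cells. The CXCR6 Lo arrays lay just above the naive array and the CXCR6 Hi arrays below it, and the LP mean differed by -0.21 (adjusted p = 0.548). Irf8, a factor of myeloid and B cells that activated T cells also express, had 7.89 to 16.5 in the LP and 11.9 in naive cells, with replicate arrays on either side of the naive array in both subsets.

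The 4 genes for sensors of viral RNA split. Dhx58, which encodes LGP2, had signals of 1.20 and 0.899 in CXCR6 Hi, 0.507 and 1.35 in CXCR6 Lo and 8.35 in naive cells, and fell by 3.17 (SE 0.65, adjusted p = 0.0364), but with its 3 probe sets averaged it did not pass (-1.14, adjusted p = 0.187). Ddx60 had 1.82 to 2.79 against 4.91 (log2 difference -1.11, adjusted p = 0.0997). Ifih1, which encodes MDA5, ran the other way with 17.9 and 23.6 in CXCR6 Hi, 24.3 and 32.8 in CXCR6 Lo and 13.7 in naive cells, and its log2 difference of 0.81 did not pass (adjusted p = 0.146). Ddx58, which encodes RIG-I, had 17.2 to 19.5 against 14.4 (adjusted p = 0.326). Another probe set of Ddx58 read 1.32 to 1.76 in the LP and 14.2 in naive cells, so that its direction also depends on the probe set.

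Antiviral effectors made up most of the genes that fell. Together with the RNA sensors, 14 of 28 measured genes fell (50%, against 18.8% of all genes), 1 rose (3.57%, against 15.1%) and 13 did not pass. The median log2 difference was -1.46, with a range of -4.36 to 3.11. In 22 of the 28 genes all 4 LP arrays were below the naive array (78.6%, against 40.9% of all genes), and in 4 all were above it (14.3%, against 35% of all genes). The median difference from the naive array was -1.56 and -1.23 on the CXCR6 Hi arrays and -1.61 and -1.20 on the CXCR6 Lo arrays, beside -0.16, -0.02, -0.17 and -0.11 over all genes. The 4 values share the naive array.

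**Figure D3:**
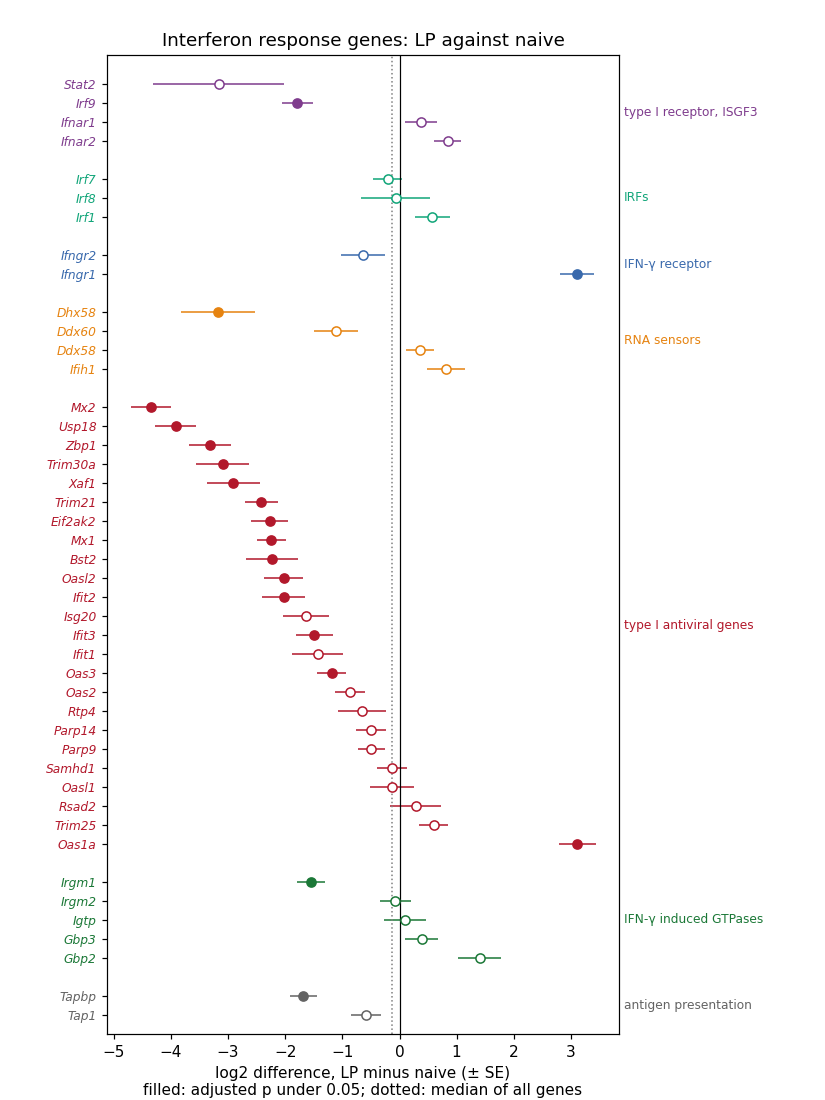
Log2 difference of LP against naive cells for each gene (± SE from the limma fit), with filled points for genes at an adjusted p under 0.05 and a dotted line at the median of all genes (-0.14). The antiviral genes range from -4.36 (Mx2) to 3.11 (Oas1a), and the 5 GTPases from -1.55 to 1.40.

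Mx2 and Usp18 had the lowest log2 differences of the 44, and the size of the first depends on how dim signals are treated. Mx2, a dynamin-like GTPase that restricts viruses, had signals of 0.062 and 0.096 on the CXCR6 Hi arrays, 0.091 and 0.086 on the CXCR6 Lo arrays and 1.69 on the naive array. It fell by 4.36 (SE 0.35, adjusted p = 0.0121), but its LP signals were far below the array median. With signals floored at 1 its difference was -0.76 and with 1 added to each signal -1.31, against -3.92 and -3.35 for Usp18. Mx1, its relative, had 2.12 and 2.41, then 2.68 and 2.43, against 11.4, and fell by 2.25 (SE 0.25, adjusted p = 0.0153). Many laboratory strains carry defective Mx1 alleles, so that its transcript does not report on an active protein. Usp18, which removes ISG15 from proteins and restrains signalling at IFNAR2, had 1.71 and 2.38 in CXCR6 Hi, 1.53 and 2.13 in CXCR6 Lo and 28.8 in naive cells. It fell by 3.92 (SE 0.36, adjusted p = 0.0130), a signal 15.1-fold lower.

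Zbp1, a sensor of Z-form nucleic acids that can start necroptosis, had signals of 3.23 and 4.99 in CXCR6 Hi, 3.19 and 3.87 in CXCR6 Lo and 37.6 in naive cells, and fell by 3.32 (SE 0.37, adjusted p = 0.0150). Xaf1, an antagonist of the apoptosis inhibitor XIAP, had 4.72 and 9.11, then 4.49 and 4.80, against 41.4, and fell by 2.91 (SE 0.46, adjusted p = 0.0232). One CXCR6 Hi array of Xaf1 stood above the other 3 LP arrays and was still well below the naive array. Eif2ak2, which encodes the RNA-dependent kinase PKR that stops translation, had 1.37 and 1.22, then 1.48 and 1.03, against 6.10, and fell by 2.27 (SE 0.33, adjusted p = 0.0204). Bst2, which encodes tetherin, a membrane protein that holds budding virus on the cell, had 2.01 and 2.22, then 2.40 and 1.26, against 9.03, and fell by 2.24 (SE 0.45, adjusted p = 0.0356). The promoter of Bst2 is among those printed above.

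The IFIT proteins bind viral RNA, and their genes are neighbours on chromosome 19 (Ifit2 chr19:34550550-34576534, Ifit3 chr19:34583119-34588982, Ifit1 chr19:34640889-34650009). Ifit2 had signals of 3.90 and 5.61 in CXCR6 Hi, 4.38 and 6.18 in CXCR6 Lo and 20.1 in naive cells, and fell by 2.03 (SE 0.38, adjusted p = 0.0306). Ifit3, whose probe set may also read a close copy of the gene, had 1.83 and 1.93, then 1.81 and 2.63, against 5.69, and fell by 1.49 (SE 0.32, adjusted p = 0.0411). Ifit1, with 4.08 and 6.20, then 5.37 and 8.63, against 15.8, had a similar difference of -1.43 but a wider spread (SE 0.44), and did not pass (adjusted p = 0.0820). All 3 genes were lower on each LP array than on the naive array, and within both subsets replicate 2 read higher than replicate 1.

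Members of the oligoadenylate synthetase family, some of which activate RNase L when they bind viral RNA, did not move together. Oas3 had signals of 2.10 and 1.82 in CXCR6 Hi, 1.45 and 1.61 in CXCR6 Lo and 3.94 in naive cells, and fell by 1.19 (SE 0.26, adjusted p = 0.0404). Oasl2, an OAS-like protein, had 0.591 and 0.406, then 0.637 and 0.766, against 2.39, and fell by 2.03 (SE 0.34, adjusted p = 0.0256). Oas1a went the opposite way, with 2.48 and 2.41 in CXCR6 Hi, 2.85 and 4.12 in CXCR6 Lo and 0.336 in naive cells. It rose by 3.11 (SE 0.32, adjusted p = 0.0143) and was dim in all groups, with a difference of 1.53 that did not pass when signals were floored at 1 (adjusted p = 0.0720). Its promoter holds the ISRE letters, as that of Oas3 does. Oas1a belongs to a cluster of near-identical copies whose transcripts a probe set may share. Oas2 (1.34 to 1.63 against 2.77, adjusted p = 0.0797) and Oasl1 (1.51 to 3.10 against 2.35, adjusted p = 0.808) did not pass.

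Of the 4 TRIM and SAMHD1 genes, 2 fell. Trim21, an intracellular antibody receptor and ubiquitin ligase, had signals of 8.18 and 9.75 in CXCR6 Hi, 9.41 and 11.8 in CXCR6 Lo and 52.0 in naive cells, and fell by 2.42 (SE 0.29, adjusted p = 0.0161). Trim30a had 7.28 and 14.1, then 11.6 and 12.1, against 93.7, and fell by 3.10 (SE 0.46, adjusted p = 0.0212). That call rests on the choice of probe set, since the other Trim30a probe set read 23.8 to 52.6 in the LP and 1.90 in naive cells with almost the same mean signal, and the Trim30 family holds close copies. Trim25, which activates RIG-I, had 47.3 to 55.3 against 34.0 (log2 difference 0.60, adjusted p = 0.151). Samhd1, which depletes nucleotides, had 52.9 to 63.4 against 65.1, and did not pass (adjusted p = 0.713). The other Samhd1 probe sets disagreed, since 1 read 20.6 to 26.9 in the LP and 70.2 in naive cells and another 15.0 to 32.1 and 1.44.

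The remaining antiviral genes did not pass. Isg20, an exonuclease, had signals of 14.2 and 23.4 in CXCR6 Hi, 7.86 and 9.92 in CXCR6 Lo and 39.5 in naive cells, just outside the threshold (log2 difference -1.64, SE 0.40, adjusted p = 0.0516). Rsad2, which encodes viperin, had 5.58 and 8.29, then 10.1 and 16.6, against 7.71, with LP arrays on both sides of the naive array. Its dimmer probe sets ran both ways (log2 differences -1.42 and 5.29), and with probe sets averaged Rsad2 passed narrowly as higher (1.38, adjusted p = 0.04999). Rtp4, Parp14 and Parp9 had log2 differences of -0.65, -0.51 and -0.49, each with all 4 LP arrays below the naive array.

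The GTPases induced by IFN-γ attack the vacuoles in which intracellular pathogens live. Over the 5 genes the median log2 difference was 0.10, with 0 higher, 1 lower and 4 not passed (15.1% higher and 18.8% lower over all genes). Igtp, which encodes IRGM3, had signals of 110 and 131 in CXCR6 Hi, 130 and 83.6 in CXCR6 Lo and 105 in naive cells, and its neighbour Irgm2 had 45.8 and 51.3, then 62.1 and 51.3, against 55.1. For both genes the naive array lay within the range of the LP arrays. Irgm1, a regulator of the other IRG proteins on another part of chromosome 11 (chr11:48865245-48871420), had 10.4 and 10.7, then 14.0 and 12.6, against 34.7, and fell by 1.55 (SE 0.24, adjusted p = 0.0232). Gbp2 had 56.6 and 91.3, then 64.9 and 56.0, against 24.9 (log2 difference 1.40, SE 0.38, adjusted p = 0.0627), from a probe set of the type that may read related transcripts. With this probe set Gbp2 passed as higher under a 40th percentile filter, quantile normalization, signal plus 1 and a variance trend (adjusted p = 0.0039 to 0.0298). The other Gbp2 probe set read 30.9 and 38.7, then 28.8 and 18.5, against 28.3, with no direction. Gbp3 had 56.6 and 73.3, then 46.3 and 50.1, against 42.6 (adjusted p = 0.349).

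Antigen presentation was represented by Tap1, a subunit of the peptide transporter, and Tapbp, which encodes tapasin and links the transporter to MHC class I. Tapbp had signals of 51.5 and 48.8 in CXCR6 Hi, 32.6 and 35.1 in CXCR6 Lo and 132 in naive cells, and fell by 1.68 (SE 0.24, adjusted p = 0.0201). Its other probe set read 2.87 to 3.55 against 3.40, and with both averaged it did not pass (-0.91, adjusted p = 0.0729). Tap1 had 31.0 and 37.7, then 26.7 and 25.1, against 44.6 (log2 difference -0.58, adjusted p = 0.170). In both genes the order was naive, then CXCR6 Hi, then CXCR6 Lo on every array, and the Tap1 difference from naive cells was not beyond the fitted spread.

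The ISRE letters were found both among the genes that fell and among those that did not pass. Of the 17 genes that fell, 12 had a window and 7 of these held the letters (58.3%). Of the 25 that did not pass, 21 had a window and 10 held them (47.6%). The median log2 difference was -1.15 for the 18 measured genes with the letters (7 fell, 1 rose) and -0.21 for the 17 without them (5 fell, 1 rose). The 17 included Irf1, Irf7, Irf8, both chains of the IFN-γ receptor, Tap1 and Tapbp, so letters and role cannot be told apart in these medians. Among the antiviral genes, Ifit2, Oasl2 and Xaf1 fell without the letters. Dhx58, Mx1, Mx2, Usp18 and Zbp1 fell and were not searched.

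The calls against naive cells depend on the number of arrays. Without either CXCR6 Hi array fewer genes passed in both directions, among the 44 and among all genes. Without either CXCR6 Lo array no gene passed, among the 44 as well as among all 18193. Ifngr1, Mx1, Usp18, Trim21, Zbp1 and Eif2ak2 passed under all 8 alternatives that kept every array, and Mx2 under the 7 that could test it. Calls were also gained. Ifnar2, Ifih1 and Gbp2 passed as higher with the 40th percentile filter, quantile normalization, signal plus 1 and the variance trend. Ifnar2 did so with the floor as well. Trim25 passed as higher with quantile normalization, signal plus 1 and the variance trend. Stat2, Isg20, Ifit1 and Ddx60 passed as lower with the filter, signal plus 1 and the variance trend, and Stat2 also with the floor. Oas2 passed as lower with the filter and signal plus 1, Parp9 with the floor and Tap1 with the variance trend. With averaged probe sets Ifnar1 and Rsad2 passed as higher and Ifngr2 as lower. Ifit2, Ifit3, Dhx58, Oas3 and Bst2 did not pass with quantile normalization, Ifit2, Ifit3, Oas1a, Bst2, Trim30a and Xaf1 with signals floored at 1, and Irf9, Ifit3, Dhx58, Oas3, Oasl2, Bst2, Irgm1 and Tapbp with a replicate block. Of the 9 B cell markers 6 fell in the LP, as the antiviral genes did (Cd79b 0.540 to 0.752 in the LP and 22.0 in naive cells), 2 did not pass and Pax5 rose (0.673 to 1.22 against 0.025). Among the 13 markers of macrophages, monocytes and neutrophils 4 rose (Cd14 58.5 to 93.0 against 1.95) and S100a8 and S100a9 fell. Of all genes 18.8% fell and 15.1% rose. The part of these other cell types, of the sex difference, of RNA quality and of the preparation in the antiviral difference was not tested.

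Each subset was also compared with the naive array on its own, and the comparisons share that array. In CXCR6 Hi cells 14 of the 44 genes fell and 2 rose (15.3% and 13.2% of all genes), and in CXCR6 Lo cells 17 fell and 2 rose (16.7% and 12.8% of all genes). Among the antiviral genes with the RNA sensors the median log2 difference was -1.36 in CXCR6 Hi and -1.38 in CXCR6 Lo cells, with 11 and 14 of 28 lower. Isg20 passed against naive cells in CXCR6 Lo (log2 difference -2.16, adjusted p = 0.0402) and not in CXCR6 Hi cells (-1.12, adjusted p = 0.140).

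No interferon response gene passed between CXCR6 Hi and CXCR6 Lo cells, and none of all 18193 genes did (0%). At an unadjusted p under 0.05, 1 of the 44 was higher in CXCR6 Hi and 0 were lower, against 3.37% and 3.18% of all genes. That gene was Isg20, whose arrays were given above, with a log2 difference of 1.05 (SE 0.36, unadjusted p = 0.0482), a 2.07-fold higher signal in CXCR6 Hi cells. For a single gene, an exact permutation test of 2 arrays against 2 cannot give a two-sided p under 0.333.

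**Figure D4:**
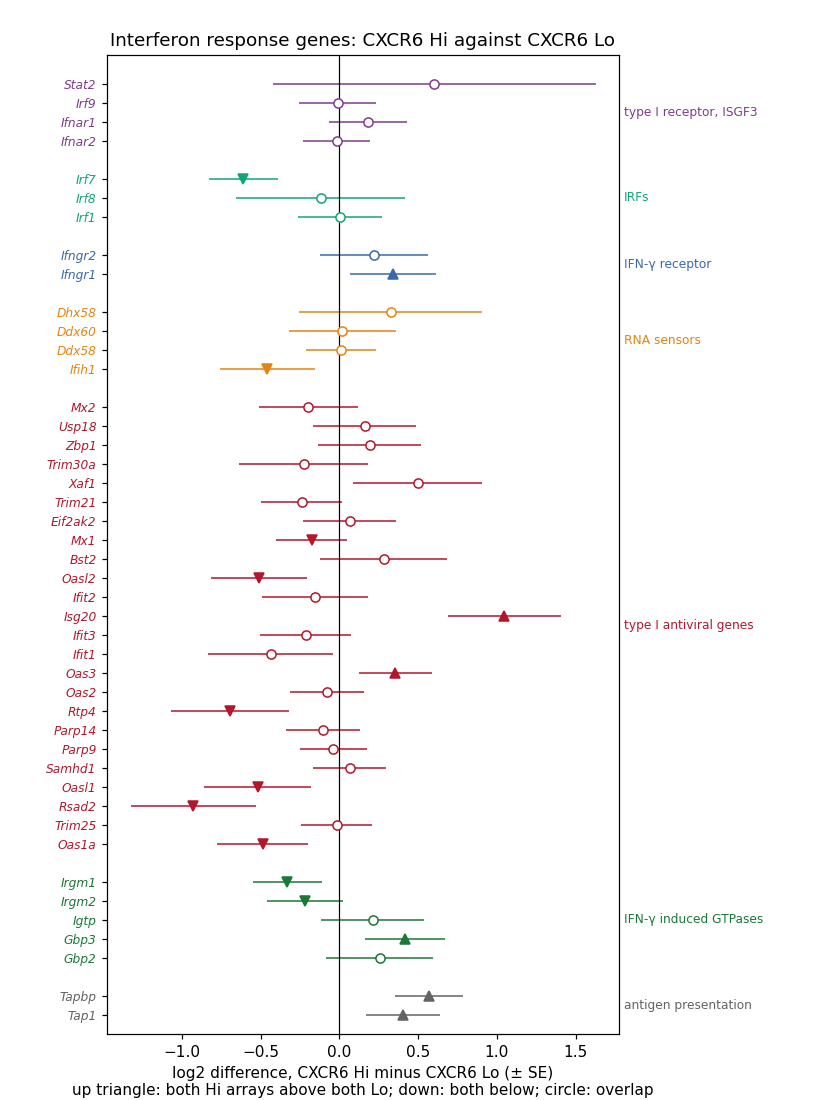
Log2 difference of CXCR6 Hi against CXCR6 Lo cells for each gene (± SE), with triangles for genes whose arrays do not overlap between subsets. The differences run from -0.93 (Rsad2) to 1.05 (Isg20), and none passed after adjustment.

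The arrays of the subsets did not overlap in 16 of the 44 genes, with CXCR6 Hi above in 6 (13.6%, against 25.1% of all genes) and CXCR6 Lo above in 10 (22.7%, against 14.3% of all genes). The 6 were Ifngr1, Isg20, Oas3, Gbp3, Tap1 and Tapbp. Tapbp differed by 0.57 (SE 0.22, unadjusted p = 0.0625) and Tap1 by 0.40. The 10 were Irf7, Ifih1, Mx1, Oas1a, Oasl1, Oasl2, Rsad2, Rtp4, Irgm1 and Irgm2, of which 7 are antiviral or RNA sensor genes, a class that makes up 28 of the 44, and 2 are GTPases. Rsad2 had the largest of these differences at -0.93 (SE 0.40, unadjusted p = 0.0856), followed by Rtp4 at -0.69, with 9.73 and 14.8 in CXCR6 Hi, 15.9 and 23.8 in CXCR6 Lo and 23.97 in naive cells. Irf7 differed by -0.61 (SE 0.22, unadjusted p = 0.0561).

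As groups, the antiviral and RNA sensor genes had a median log2 difference of -0.09 between CXCR6 Hi and CXCR6 Lo cells, with 11 positive and 17 negative, and the GTPases one of 0.21, beside 0.08 over all genes. Without CXCR6 Hi replicate 1 the antiviral median was 0.03, and without CXCR6 Hi replicate 2 or CXCR6 Lo replicate 2 the GTPase median was -0.09 and -0.11. For single genes, the median size of the difference between replicate arrays over the 44 was 0.30 for CXCR6 Hi and 0.27 for CXCR6 Lo. T cell markers summed to 629 and 705 in CXCR6 Hi and 504 and 447 in CXCR6 Lo cells. Of the 7 markers, 5 were above on both CXCR6 Hi arrays (71.4%, against 25.1% of all genes). Their median log2 difference over the 7 was 0.51, beside 0.08 over all genes. Myeloid markers summed to 329 and 436 in CXCR6 Hi and 414 and 430 in CXCR6 Lo cells, and the Gapdh 3' to 5' signal ratio was 2.81 and 3.98 in CXCR6 Hi and 4.19 and 6.96 in CXCR6 Lo cells. The part of T cell content and RNA quality in the subset differences was not tested.

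A wider list held 84 genes of the interferon pathways outside the 45, of which 75 were measured. Of the 75, 17 fell, 10 rose and 48 did not pass against naive cells, with a median log2 difference of -0.43 (all genes -0.14). The shares of 22.7% lower and 13.3% higher were near the 18.8% and 15.1% of all genes. The kinases that start the signal did not pass, with log2 differences of 0.87 for Jak1 (adjusted p = 0.143), 0.38 for Jak2 (adjusted p = 0.323) and -0.91 for Tyk2 (adjusted p = 0.0651).

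The 5 lowest genes of the wider list that passed were Irf5, Irf2, Sp100, Lgals9 and Ifi44l. Irf5, a factor known from myeloid and B cells, had signals of 0.860 and 1.42 in CXCR6 Hi, 1.22 and 1.13 in CXCR6 Lo and 33.0 in naive cells, and fell by 4.86 (SE 0.38, adjusted p = 0.0120). Irf2, which competes with Irf1 for its sites, had 3.99 and 1.60, then 1.81 and 3.22, against 60.1, and fell by 4.60 (SE 0.68, adjusted p = 0.0212). Both factors were far lower on each LP array than on the naive array. Sp100, a nuclear body protein, had 4.41 to 5.99 against 61.7 (log2 difference -3.52, adjusted p = 0.0121). Lgals9, a galectin, had 4.75 to 7.61 against 60.8 (-3.28, adjusted p = 0.0125). Ifi44l, an interferon-induced gene, had 1.44 to 2.24 against 14.7 (-3.08, adjusted p = 0.0155).

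The 5 highest genes of the wider list that passed were Ido1, Cxcl9, Ifng, Cxcl10 and Socs3. Ifng had signals of 156 and 248 in CXCR6 Hi, 42.4 and 38.2 in CXCR6 Lo and 17.6 in naive cells, and rose by 2.34 (SE 0.37, adjusted p = 0.0231). Cxcl9 and Cxcl10, chemokines that IFN-γ induces, had 18.2 to 48.9 against 1.53 and 10.03 to 15.3 against 2.67, and rose by 4.38 (adjusted p = 0.0216) and 2.27 (adjusted p = 0.0237). Ido1, a tryptophan-degrading enzyme of myeloid and other cells, had 2.62 to 5.31 against 0.033 and rose by 6.86 (adjusted p = 0.0119). Both chemokines and Ido1 are known mainly from myeloid, epithelial and stromal cells. In the LP 4 of 13 myeloid, 3 of 13 epithelial and 7 of 11 fibroblast and smooth muscle markers rose, while 2, 1 and 0 fell. Over all genes 15.1% rose and 18.8% fell. The epithelial markers summed to 48.5 to 98.55 in the LP and 107 in naive cells, of which Car1 gave 85.2. The part of such cells in the signals of Cxcl9, Cxcl10 and Ido1 was not tested. Socs3, an inhibitor of cytokine signalling, had 86.5 to 125 against 29.1 and rose by 1.92 (SE 0.29, adjusted p = 0.0214), and Socs1, the inhibitor of IFN-γ signalling, had 1.10 to 1.68 against 0.792 and did not pass (adjusted p = 0.0993).

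Between the subsets no gene of the wider list passed after adjustment. At an unadjusted p under 0.05, 4 of the 75 were higher in CXCR6 Hi cells and 0 lower, against 3.37% and 3.18% of all genes, and they are named here after their values were seen. Ifng differed by 2.29 (unadjusted p = 0.00300), Epsti1 by 1.45 (unadjusted p = 0.00407), Tap2, the partner of Tap1 in the peptide transporter, by 0.97 (unadjusted p = 0.0143) and Ifitm3, an antiviral membrane protein, by 1.31 (unadjusted p = 0.0402). Tap2 had signals of 14.6 and 16.1 in CXCR6 Hi, 8.20 and 7.48 in CXCR6 Lo and 12.8 in naive cells. The arrays did not overlap in 34 of the 75 genes, CXCR6 Hi above in 25 (33.3%, against 25.1% of all genes) and CXCR6 Lo above in 9 (12%, against 14.3%).

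Where a gene had other probe sets, these often gave a different picture. Of the 44 genes, 21 had more than 1 probe set, and 24 of their 32 other probe sets had a mean signal of at least 1. Against naive cells 14 of the 24 ran the same way as the probe set used and 10 the opposite way. Among the genes that passed, 5 of 6 such probe sets ran the same way, and the exception was Trim30a. Of the 5, that of Tapbp was nearly flat (log2 difference -0.14). A probe set of Dhx58 under the limit of 1 also ran the opposite way (1.68).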

How the data were processed

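The authors deposited intensity values on a linear scale whose median is 1 per array. The methods name GeneSpring 11.5 and the submitters' notes RMA, with the background correction not given in the sources used. Methods and labels name different RNeasy kits. Of 45101 probe sets, 34945 carry 1 gene symbol and 932 several. The probe set with the highest mean over the 5 arrays was taken for each of 18193 genes. Tests used log2 signals, and the 2 values of 0 became 0.001. All 5 arrays entered 1 fit (limma 3.58.1, R 4.3.3, moderated by eBayes, two-sided p adjusted by Benjamini-Hochberg across the whole table at 0.05), with 2 residual and 1.68 prior degrees of freedom. The script was tested on simulated data. The listed genes, their roles and the wider list were chosen with earlier results of these data known. Every listed gene may be named. Of the wider list, Ifng, Jak1, Jak2, Tyk2, Socs1 and Socs3 and the 5 genes furthest in each direction that passed were named. Other settings tried were averaged probe sets, no _s_at or _x_at probe sets, a filter at the 40th percentile, quantile normalization, signal plus 1, a floor at 1, a variance trend, a replicate block and leaving out each LP array. Motif letters were searched with Python 3.11.15, and plots drawn with matplotlib 3.10.9. The number of arrays limits the precision.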

Additional observations from a re-analysis of the deposited data

Results flagged for a closer look

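Irf7 was the only listed gene for which both arrays of one subset lay above the naive array and both of the other below it. How many of all genes show this order was not counted. The CXCR6 Lo arrays read 14.9 and 14.0, the naive array 13.5 and the CXCR6 Hi arrays 8.95 and 10.03. The difference between the subsets was -0.61 on the log2 scale and did not pass in limma (unadjusted p = 0.0561).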

How the results depend on the processing

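Against naive cells the antiviral median was negative under all alternatives run, at -0.89 with quantile normalization, -1.11 with signal plus 1 and -1.62 to -1.31 when 1 LP array was left out. Of the 44 genes, 4 rose with averaged probe sets, 5 with the 40th percentile filter (42 genes left), and 6 each with quantile normalization, signal plus 1 and the variance trend. Over all genes 1988, 2480 (of 10916 left), 2787, 2817 and 3545 rose, in the same order. With the filter 20 of the 42 listed genes and 4308 of the 10916 fell. For CXCR6 Hi alone against naive cells 4 rose with the filter, quantile normalization, signal plus 1 and the variance trend, and 22 fell with signal plus 1. For CXCR6 Lo the numbers that rose were 4 with averaged probe sets, 5 with the filter or signal plus 1 and 6 with quantile normalization or the variance trend, and 10 fell with averaged probe sets or quantile normalization. For each subset alone, all genes were not counted under these settings. Quantile normalization moved the median of all genes from -0.14 to 0.0044. Leaving out 1 LP array left fewer or no genes passing for LP, among the 44 and among all genes, and none of the 44 for either subset alone.

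With a replicate block 9 of the 44 genes fell for LP (1807 of all 18193), and for each subset alone 0 rose and 0 fell. The differences between replicates of the subsets correlated at 0.019 over all genes, 0.48 over the 44 and 0.065 over the 28 antiviral and sensor genes. Higher on replicate 2 of both subsets were 17 of the 28 (60.7%) and 19 of the 44 (43.2%), against 32.5% of all genes. Whether the numbers pair the arrays cannot be told from 2 pairs.

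Signs that turned were those of small or probe-set-dependent differences. With averaged probe sets Irf8 was 0.29, Ifnar2 -0.65, Ddx58 -0.81, Trim30a 0.50 and Samhd1 1.15, and without _x_at probe sets Gbp2 was -0.0033. With quantile normalization Irf7 was 0.42, Irf8 0.55, Oasl1 0.25, Parp9 0.084, Igtp -0.36 and Irgm2 0.13. With 1 array left out Irf8 ranged from -0.31 to 0.17, Oasl1 from -0.27 to 0.0029 and Igtp from -0.063 to 0.25. The cause was not tested. Between the subsets the methods' t-test found Irf7 and Tapbp under 0.05 (1283 of all 18193 genes) and, after Benjamini-Hochberg, 0 of the 44.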
